A study of Mus musculus with 42 samples.

Results

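The 10 genes described here are imprinted genes of the mouse that lie outside the Prader-Willi region. They are Dlk1, Meg3, Peg3, Peg10, Nnat, Gnas, Grb10, Impact, Plagl1 and Cdkn1c. They were taken by symbol from a table of 37907 Ensembl gene IDs, where each of the 10 matched 1 ID, and all 10 passed the filter on low values that left 33579 genes for testing. An imprinted gene is transcribed mainly from the chromosome of 1 parent, directed by DNA methylation laid down in the egg or the sperm. Many such genes act on growth before birth, and several are transcribed at a high level in the hypothalamus, where they touch on feeding, body weight and hormone release. The reads here were not split by parental allele, so the values give the total transcript level of each gene and not its imprinting.

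Expression was measured by RNA-seq in 42 libraries from wild-type male C57/BL6 mice of 16 to 19 weeks of age, with no transgene or deletion in any group. Before dissection the mice had free access to food or had gone without it for 24 hours, and 4 hypothalamic nuclei were cut from cryosections by laser-capture microdissection. The arcuate nucleus (ARC) gave 5 fed and 5 fasted libraries, the ventromedial hypothalamus (VMH) 6 and 6, the dorsomedial hypothalamus (DMH) 5 and 4, and the paraventricular nucleus (PVN) 6 and 5. All nuclei were captured from the same brains according to the study, but no label ties a library to its mouse, so the libraries were treated as independent and p-values between nuclei do not account for shared mice.

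Levels are in RPKM, the read count scaled to gene length and library size. Differences were computed from log2(RPKM + 1) and are given with a standard error (SE). Each adjusted p is from limma with Benjamini-Hochberg adjustment over the 33579 genes, and a difference passed the threshold where this value was below 0.1, the level the study used. The depth read from the steps of the low values averaged 4.57 M reads and ran from 1.33 to 13.2 M reads, and it was higher in the fasted than in the fed DMH libraries (7.38 ± 4.0 M against 3.91 ± 0.862 M, SD, exact permutation p = 0.0238). The libraries fell into 3 batches of 10, 16 and 16 that were inferred from the values, and batch 1 held 0 fasted DMH libraries. All 18 of 18 marker genes were highest in the nucleus they were listed for. The DMH list also held markers of the adjoining lateral area, Hcrt (187 RPKM in the fed DMH) and Pmch (420 RPKM). The DMH libraries can thus include tissue of that area, and its part in the DMH values was not tested. In bulk tissue of this kind, fewer cells of a type and less RNA per cell cannot be told apart.

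The positions are on GRCm38. Dlk1 (chr12:109452823-109463336, plus strand) and Meg3 (chr12:109541001-109571726, plus strand) lie in the same imprinted domain of chromosome 12. Peg3 (chr7:6703892-6730431, minus strand) and Cdkn1c (chr7:143458339-143461050, minus strand) lie in separate domains of chromosome 7. Nnat (chr2:157560078-157562522, plus strand) lies within the bounds of Blcap, and Gnas (chr2:174284320-174346744, plus strand) lies further along chromosome 2. Peg10 is at chr6:4747306-4760517, Grb10 at chr11:11930508-12038683 and Plagl1 at chr10:13060504-13131694. Meg3 is annotated as a lincRNA and the others are protein-coding.

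RefSeq (GRCm38.p6) gave promoter windows for 7 of the 10 genes, each with 250 bases before and 50 after a transcription start. The windows of Dlk1 and Plagl1 are shown because the levels of these genes differed most between nuclei. Capitals mark the CG dinucleotides, which can carry DNA methylation, and whether these windows hold an imprint was not tested. The count reads the same on both strands. The first window is at chr12:109452573-109452872 and the second at chr10:13090582-13090881, which is inside the GENCODE bounds of Plagl1, and both are on the plus strand.
Dlk1: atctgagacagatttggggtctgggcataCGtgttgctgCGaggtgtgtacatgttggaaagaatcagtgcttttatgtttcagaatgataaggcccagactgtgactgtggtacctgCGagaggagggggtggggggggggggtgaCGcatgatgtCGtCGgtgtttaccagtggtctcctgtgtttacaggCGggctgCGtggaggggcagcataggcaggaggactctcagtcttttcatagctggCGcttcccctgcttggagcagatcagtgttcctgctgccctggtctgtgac
Plagl1: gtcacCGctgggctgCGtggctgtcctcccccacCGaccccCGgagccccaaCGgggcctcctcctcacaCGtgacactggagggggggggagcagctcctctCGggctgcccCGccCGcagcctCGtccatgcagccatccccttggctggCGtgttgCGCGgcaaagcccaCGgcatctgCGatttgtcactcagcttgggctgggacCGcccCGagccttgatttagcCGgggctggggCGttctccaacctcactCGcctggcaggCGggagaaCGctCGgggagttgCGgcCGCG

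The Dlk1 window held 9 CG dinucleotides and the Plagl1 window 26. Of all 32851 windows of this length, 45.8% held at least as many as Dlk1 and 16.9% at least as many as Plagl1, with a median of 7. The window of Nnat held 17, which 31.4% of windows reached. Methylation was not measured in these libraries.

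As a group, the 10 genes were strongly transcribed, with 1 exception. Nnat and Peg3 were the highest by mean over the 42 libraries, at 355 and 329 RPKM. Meg3 (199 RPKM), Impact (196), Peg10 (124), Dlk1 (95.5), Gnas (85.2) and Grb10 (49.9) followed, and Plagl1 had a mean of 15.7 RPKM. Cdkn1c, an inhibitor of cyclin-dependent kinases that holds cells out of division, had a mean of 2.21 RPKM. The lowest values of Cdkn1c were the value that this table gives in the absence of reads, 0.622 RPKM in batch 1, where 4 of 10 libraries had 0 reads and the others 3 to 49.

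**Figure D1:**
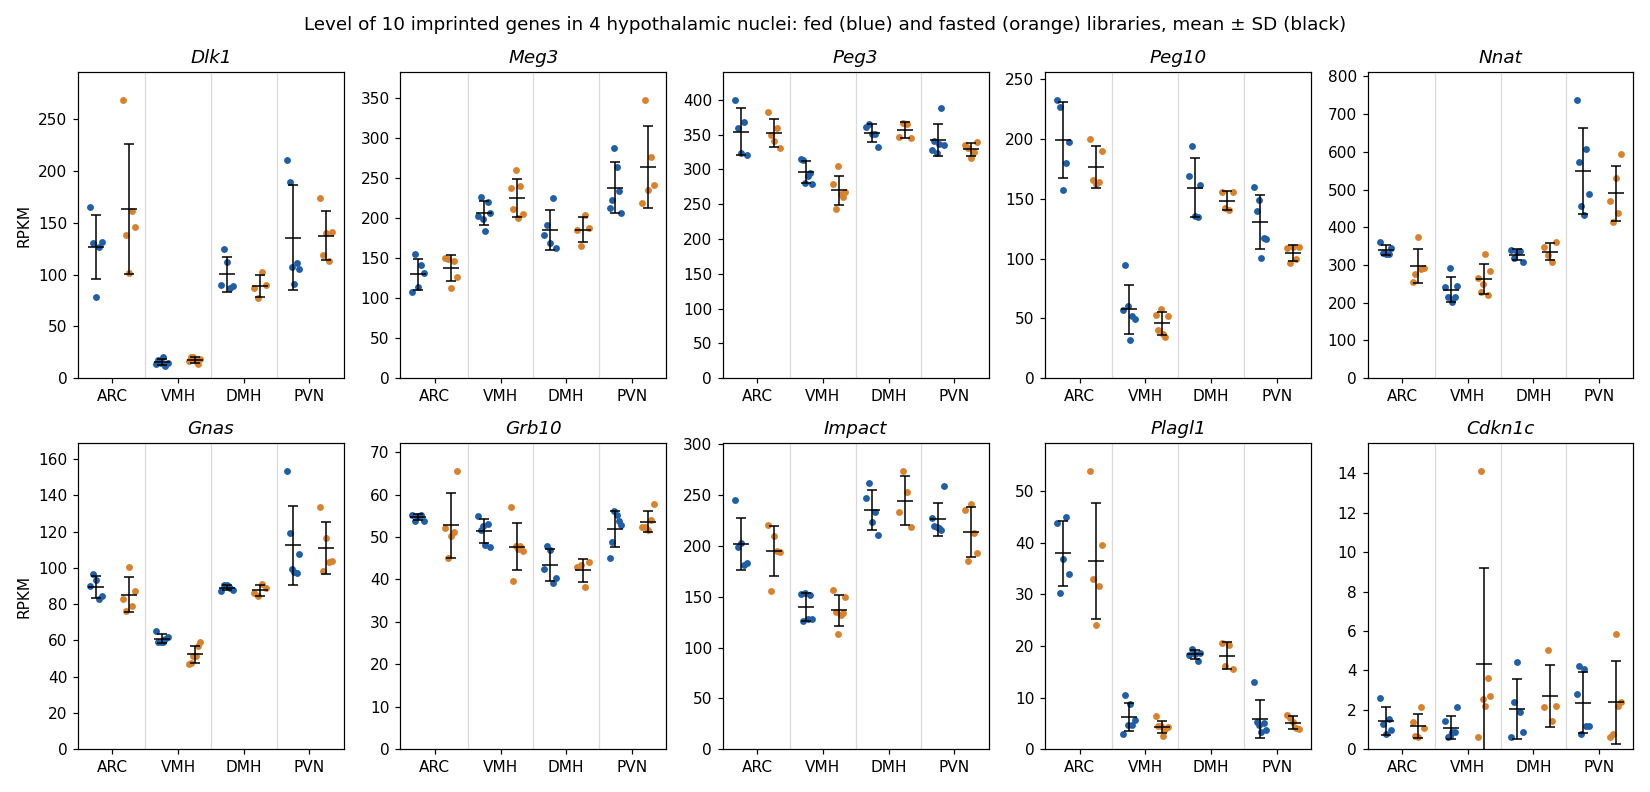
Level of each gene in RPKM (vertical axes, each from 0) in the 42 libraries by nucleus, with fed libraries in blue, fasted in orange, and the mean ± SD in black (the lower bar of Cdkn1c in fasted VMH runs below the axis). Dlk1 and Peg10 sit low in all VMH libraries, Plagl1 is high in the ARC, and fed and fasted points overlap in each nucleus, with the exception of Gnas in the VMH.

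The first question was whether the nuclei differ in the transcription of these genes. In fed mice 9 of 10 genes differed between the 4 nuclei, the exception being Cdkn1c (adjusted p = 0.852), while 12.4% of all genes tested passed this F test. In fasted mice it was also 9 of 10, against 11.9% of all genes. Many genes in the table had no reads, and of the 8837 genes with a mean of at least 5 RPKM and no recurring no-read value (the genes with reads) the share was 30.6% in fed and 28.7% in fasted mice. The VMH was the nucleus with the lowest fed mean for 6 of the 9 genes, Dlk1, Peg3, Peg10, Nnat, Gnas and Impact. This count was not made over all genes, so it cannot be called particular to these 9. Meg3 was lowest in the ARC, Grb10 in the DMH and Plagl1 in the PVN. The highest fed mean fell in the ARC for 4 genes, in the PVN for 4 and in the DMH for 1.

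Among the genes of extracellular and receptor signalling, Dlk1 showed the widest range of the 10. Dlk1 encodes a membrane protein related to the Notch ligands and is transcribed from the paternal copy. The 5 fed ARC libraries had 165, 131, 78.8, 126 and 132 RPKM of Dlk1. The 5 fed DMH libraries had 89.6, 125, 112, 86.7 and 89.1 RPKM. The 6 fed PVN libraries ran from 91.1 through a median of 109 to 210 RPKM. The 6 fed VMH libraries lay apart from these, from 11.7 through 14.9 to 20.8 RPKM, and did not overlap with any other nucleus. The mean of 136 ± 50.6 RPKM (SD, n = 6) in the PVN was 8.75-fold above the 15.5 ± 3.21 RPKM (n = 6) of the VMH, and in fasted mice the highest mean was 9.24-fold above the lowest. The fed difference was 2.93 for ARC minus VMH (SE 0.21, adjusted p = 5.32e-13), -2.62 for VMH minus DMH (SE 0.21, adjusted p = 1.91e-11) and -2.996 for VMH minus PVN (SE 0.20, adjusted p = 6.74e-14). The order of the PVN, ARC and DMH was not resolved in fed mice, where ARC minus DMH was 0.31 (SE 0.22, adjusted p = 0.7) and DMH minus PVN -0.37 (SE 0.21, adjusted p = 0.521). In fasted mice the ARC was above the DMH by 0.80 (SE 0.23, adjusted p = 0.0552).

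Grb10, an adaptor that binds and inhibits the insulin and IGF1 receptors, is transcribed from the paternal copy in neurons and mainly from the maternal copy elsewhere. It was nearly even across the nuclei. Its fed means were 54.6 ± 0.756 RPKM (n = 5) in the ARC, 51.9 ± 4.21 (n = 6) in the PVN, 51.4 ± 2.85 (n = 6) in the VMH and 43.4 ± 3.85 (n = 5) in the DMH, a 1.26-fold range. The 5 fed ARC libraries ran from 53.8 to 55.3 RPKM and the 5 fed DMH libraries from 39.2 to 47.9, so these groups did not overlap. The DMH was below the ARC by 0.33 (SE 0.076, adjusted p = 0.0102), below the PVN by 0.25 (SE 0.073, adjusted p = 0.0511) and below the VMH by 0.24 (SE 0.073, adjusted p = 0.0544). The calls against the PVN and the VMH were near the threshold, and each was lost when any of several single libraries was left out. The difference from the VMH missed the threshold without fed DMH library 1, 4 or 5 or without fed VMH library 1 or 5 (0.21 to 0.23, adjusted p = 0.103 to 0.166), and that from the PVN without fed DMH library 1, 4 or 5 or without fed PVN library 3, 4 or 5 (-0.25 to -0.22, adjusted p = 0.106 to 0.173). The difference from the PVN also missed it when libraries were scaled to the genes with reads (-0.21, adjusted p = 0.102).

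Gnas encodes the stimulatory G protein alpha subunit, which couples the melanocortin receptors and many others to cyclic AMP, and in the PVN it is known for transcription mainly from the maternal copy. Its fed libraries had 89.9, 96.9, 93.2, 82.8 and 84.3 RPKM in the ARC and 87.5, 90.7, 90.6, 88.9 and 88.1 RPKM in the DMH. The 6 fed PVN libraries ran from 97.1 through a median of 103 to 153 RPKM and the 6 fed VMH libraries from 59.3 through 60.2 to 65.5. Each VMH library was below and each PVN library above all libraries of the ARC and DMH. The VMH was below the ARC by 0.54 (SE 0.085, adjusted p = 2.12e-05), below the DMH by the same amount (SE 0.085, adjusted p = 3.93e-05) and below the PVN by 0.85 (SE 0.081, adjusted p = 7.31e-10). The PVN was above the ARC and the DMH by 0.31 each (SE 0.085, adjusted p = 0.0331 and 0.037). Without fed PVN library 1, the one at 153 RPKM, these differences fell to 0.22 (adjusted p = 0.114 and 0.119), and the first also missed the threshold without fed ARC library 4 (0.28, adjusted p = 0.104). The value of Gnas is uncertain, since 22% of its exon length is shared with Gm20721, annotated on the opposite strand, and Nespas, and the reads carry no strand. Fed means of Gm20721 were 946 (ARC), 695 (VMH), 952 (DMH) and 1234 RPKM (PVN), and 99% of its exon length is shared with Gnas.

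Of the genes with a role inside the cell, Nnat had the highest level. It encodes neuronatin, a small membrane protein of the endoplasmic reticulum that acts on calcium handling, and is transcribed from the paternal copy. Its 5 fed ARC libraries had 360, 333, 329, 328 and 346 RPKM and its 5 fed DMH libraries 339, 319, 335, 337 and 307 RPKM. The 6 fed PVN libraries ran from 433 through 530.2 to 738 RPKM and the 6 fed VMH libraries from 203 through 229 to 291 RPKM. The PVN libraries were all above, and the VMH libraries all below, every library of the other nuclei. The PVN was above the VMH by 1.21 (SE 0.11, adjusted p = 2.45e-10), above the DMH by 0.72 (SE 0.11, adjusted p = 7.54e-05) and above the ARC by 0.67 (SE 0.11, adjusted p = 0.00015). The VMH was below the ARC by 0.54 (SE 0.11, adjusted p = 0.00158) and below the DMH by 0.49 (SE 0.11, adjusted p = 0.00728). The ARC and DMH differed by 0.05 (SE 0.12). In fasted mice the VMH was still lowest, but its differences from the ARC (-0.18) and the DMH (-0.36) missed the threshold (adjusted p = 0.499 and 0.131). Blcap, whose bounds enclose Nnat, ran from 32.1 to 39.1 RPKM in the fed means and did not pass the F test.

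Impact, which encodes an inhibitor of the amino acid sensing kinase GCN2, is at chr18:12955852-12992950 and is transcribed from the paternal copy. Its fed mean was 235 ± 20.03 RPKM (n = 5) in the DMH, 226 ± 16.3 (n = 6) in the PVN, 202 ± 25.5 (n = 5) in the ARC and 140 ± 13.8 (n = 6) in the VMH. The VMH libraries, from 126 to 154 RPKM, did not overlap with those of the other nuclei, whose lowest library had 181 RPKM. The VMH was below the DMH by 0.75 (SE 0.091, adjusted p = 3.36e-07), below the PVN by 0.69 (SE 0.087, adjusted p = 2.86e-07) and below the ARC by 0.52 (SE 0.091, adjusted p = 9.71e-05). The 3 others did not differ past the threshold in fed mice.

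Plagl1 and Peg3 encode zinc finger proteins, and both are transcribed from the paternal copy. Plagl1 had its peak in the ARC, with 43.7, 30.3, 36.8, 44.9 and 33.97 RPKM in the 5 fed libraries. The 5 fed DMH libraries had 18.3, 19.5, 18.5, 17.1 and 18.6 RPKM. The 6 fed VMH libraries ran from 3.07 through 5.26 to 10.46 RPKM and the 6 fed PVN libraries from 3.42 through 4.83 to 13.1. The ARC, the DMH and the other pair of nuclei thus formed 3 levels with no overlap. The ARC mean of 37.9 ± 6.25 RPKM was 6.46-fold above the PVN mean of 5.87 ± 3.60, and 8.32-fold separated the highest from the lowest mean in fasted mice. The ARC was above the DMH by 0.99 (SE 0.25, adjusted p = 0.0198), above the VMH by 2.498 (SE 0.23, adjusted p = 6.68e-10) and above the PVN by 2.61 (SE 0.23, adjusted p = 4.05e-10), and VMH minus PVN was 0.11 (SE 0.22). Peg3, by contrast, had the narrowest range of the 10 genes in fed mice, 1.20-fold, while in fasted mice it was 1.32-fold and that of Grb10 1.27-fold. Its fed means were 354 ± 33.3 RPKM in the ARC, 352 ± 12.6 in the DMH, 342 ± 23.4 in the PVN and 296 ± 15.9 in the VMH. The VMH was below the ARC by 0.26 (SE 0.052, adjusted p = 0.000872), the DMH by 0.25 (SE 0.052, adjusted p = 0.00187) and the PVN by 0.21 (SE 0.050, adjusted p = 0.00459).

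Peg10 derives from a retrotransposon, still encodes gag-like and pol-like proteins, and is transcribed from the paternal copy. The 5 fed ARC libraries had 233, 227, 157, 180 and 198 RPKM of Peg10 and the 5 fed DMH libraries 169, 194, 136, 135 and 161 RPKM. The 6 fed PVN libraries ran from 100 through 129 to 160 RPKM and the 6 fed VMH libraries from 32.0 through 54.4 to 94.6. All VMH libraries were below all libraries of the other nuclei. The VMH was below the ARC by 1.83 (SE 0.16, adjusted p = 2.59e-10), below the DMH by 1.51 (SE 0.16, adjusted p = 3.8e-08) and below the PVN by 1.22 (SE 0.16, adjusted p = 4.88e-07). The ARC was above the PVN by 0.61 (SE 0.16, adjusted p = 0.0285), or by 0.55 (adjusted p = 0.104) without fed ARC library 1, while neither differed past the threshold from the DMH between them.

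Meg3, the noncoding RNA of the domain that holds Dlk1, is transcribed from the maternal copy, opposite to Dlk1. Its fed means were 238 ± 32.0 RPKM (n = 6) in the PVN, 207 ± 15.2 (n = 6) in the VMH, 186 ± 24.6 (n = 5) in the DMH and 130 ± 19.4 (n = 5) in the ARC. The 5 fed ARC libraries, at 108, 155, 114, 142 and 131 RPKM, were all below the lowest library of the other nuclei, 163 RPKM. The ARC was below the PVN by 0.87 (SE 0.11, adjusted p = 5.02e-07), below the VMH by 0.68 (SE 0.11, adjusted p = 2.98e-05) and below the DMH by 0.51 (SE 0.11, adjusted p = 0.00673). Dlk1 was lowest in the VMH, where Meg3 was second to the PVN, and over the 42 libraries the correlation of the 2 genes was r = -0.28. The difference between the PVN and the DMH, 0.36 (SE 0.11, adjusted p = 0.076), missed the threshold without fed DMH library 1, 3 or 5 or without fed PVN library 3, 4 or 5 (0.30 to 0.36, adjusted p = 0.11 to 0.213), and also with libraries scaled to the genes with reads (0.31, adjusted p = 0.161). Of Meg3, 8.29% of the exon length is shared with other genes, mainly Gm26906.

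Counted over the pairs of nuclei in fed mice, 8 of 10 genes differed between ARC and VMH, against 7.9% of all genes, and 8 between VMH and DMH (5.24%). The count was 6 between VMH and PVN (9.84%), 5 between ARC and PVN (4.13%), 5 between DMH and PVN (3.42%) and 3 between ARC and DMH (2.79%). Of the 35 fed differences past the threshold, 22 involved the VMH, as did 30 of the 60 differences compared. Pairs with the VMH also had the largest shares among all genes. The shares of single pairs, fed or fasted, were not computed for the genes with reads, where the share passing the F test was higher. In fasted mice, from other animals, 34 of 60 differences passed, of which 32 had passed in fed mice, and 35 of the 35 fed differences had the same sign. The fasted counts were 7 for ARC and VMH (8.91% of all genes), 6 for VMH and DMH (3.94%), 6 for VMH and PVN (9.24%), 5 for ARC and PVN (4.19%), 5 for DMH and PVN (3%) and 5 for ARC and DMH (3.21%). Within each of the 3 batches, 35 of the 35 fed differences kept their sign. They had been picked from these same libraries, so this is not a separate check. Batch 1 held only 1 fed library each of the ARC and DMH.

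**Figure D2:**
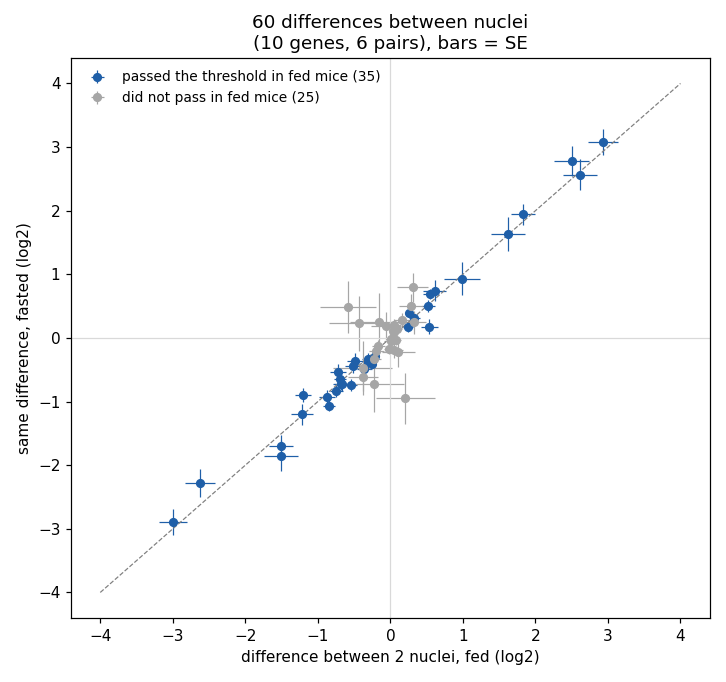
Difference between the nuclei of each of 6 pairs for the 10 genes (60 points, log2 scale) in fed mice (horizontal axis) and fasted mice (vertical axis), with SE as bars and the dashed line marking equal differences. The 35 differences past the threshold in fed mice (blue) all lie in the quadrants of equal sign, and the outermost belong to Dlk1 and Plagl1.

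Markers of cell types moved with the nuclei as well. The 4 neuron markers summed to 997 RPKM in the fed VMH (912 to 1056), against 450 in the ARC (424 to 479), 543 in the DMH (494 to 578) and 587 in the PVN (522 to 668). The neuron markers did not move alike. Fed VMH minus DMH was 1.12 for Snap25 and 0.86 for Rbfox3, but 0.02 for Syt1 and -0.03 for Tubb3. Fed VMH minus PVN was 0.91, 1.78, 0.91 and -0.39 in the same order. The 5 oligodendrocyte markers summed to 225 RPKM in the fed VMH (184 to 286), against 91.5 (ARC), 137 (DMH) and 92.0 (PVN). The F test across fed nuclei was passed by 3 of 4 neuron and 3 of 5 oligodendrocyte markers, 2 of 4 astrocyte, 2 of 4 endothelial, 2 of 5 tanycyte and 0 of 4 microglia markers. The part of these differences in the low VMH values of the imprinted genes was not tested.

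The second question was whether a 24-hour fast changed the 10 genes. The limma test called 0 of the 10 in each nucleus. The share called among all genes was 0.0566% for the ARC, 0.131% for the VMH, 0.0238% for the DMH and 0.0715% for the PVN. The unadjusted limma p was under 0.05 for 0, 3, 0 and 0 of the 10 genes, against 7.5, 7.31, 6.48 and 5.53% of all genes in these nuclei. The median change of the 10 genes was -0.07, -0.07, -0.01 and -0.05 in the same order of nuclei, and the median of the genes with reads was -0.01, -0.03, 0.01 and -0.02. For the 9 genes other than Cdkn1c, 36 of 36 intervals of 95% lay within 1 log2 unit of no change, and the largest change was 0.37 in size. A test of whether the fasting changes differed between the nuclei was passed by 0 of 10 genes, against 0.00596% of all genes.

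**Figure D3:**
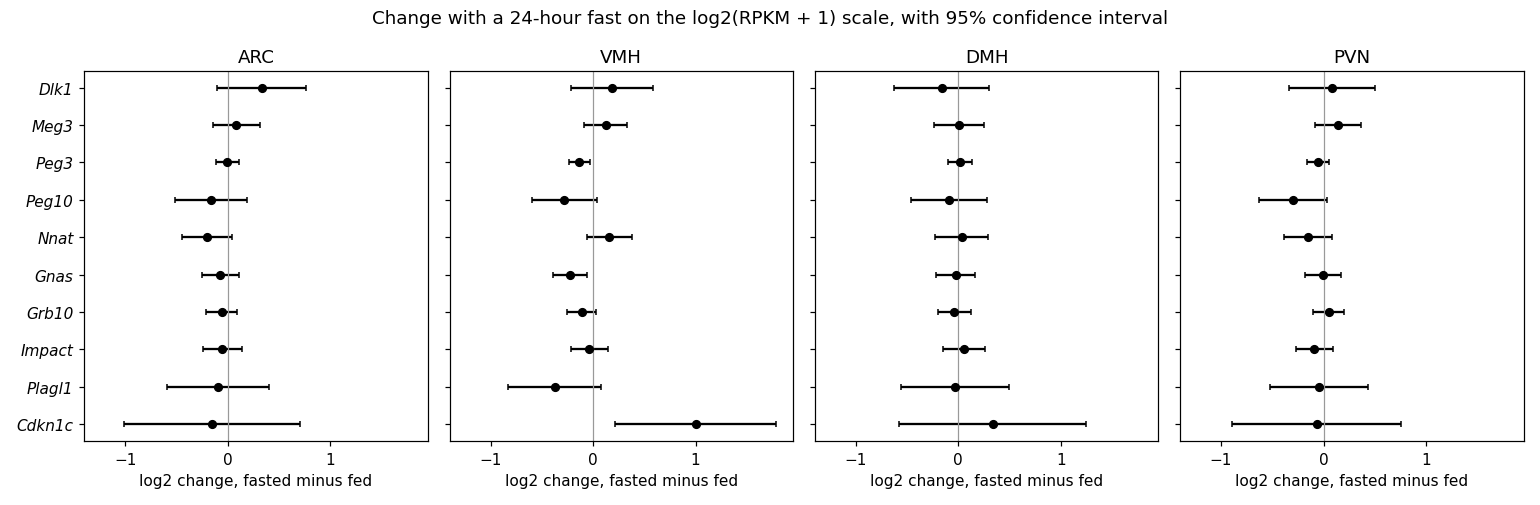
Change with the fast, fasted minus fed on the log2(RPKM + 1) scale (horizontal axes), of the 10 genes in each nucleus, with 95% confidence intervals from the limma fit. The intervals are narrow for Peg3, Gnas and Grb10 and wide for Cdkn1c, and 3 of them exclude 0, those of Peg3, Gnas and Cdkn1c in the VMH.

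The smallest p belonged to Gnas in the VMH. The 6 fed libraries ran from 59.3 through a median of 60.2 to 65.5 RPKM, and the 6 fasted libraries from 47.3 through 51.5 to 59.0 RPKM. The groups did not overlap, which was true of 1 of the 10 genes in this nucleus, against 0.277% of all genes, and of 0 in the others (0.742% in the ARC, 1.15% in the DMH, 0.402% in the PVN). Fed and fasted means were 61.1 ± 2.42 and 52.3 ± 4.70 RPKM, and the change was -0.22 (SE 0.081, p = 0.00968 and adjusted p = 0.444 from limma, exact permutation p = 0.00216), with 6 of 6 fasted libraries below the fed mean. Within batches it was -0.38, -0.20 and -0.09. Of 4 astrocyte markers, 1, Aqp4, was called with fasting in this nucleus (-0.94, adjusted p = 0.0477). The markers did not move alike, with Gja1 at -0.10 and Aldh1l1 at 0.39, in the opposite direction. The 4 summed to 97.7 RPKM in the fed (81.5 to 117) and 84.1 RPKM in the fasted VMH (67.2 to 93.7). The part of astrocytes in the VMH values was not tested. The value of the overlapping Gm20721 was -0.14 (SE 0.078, adjusted p = 0.652). Gnas had values of -0.07, -0.02 and -0.01 in the ARC, DMH and PVN.

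Peg3 in the VMH had a value of -0.13 (SE 0.050, p = 0.0114 and adjusted p = 0.456 from limma, exact permutation p = 0.0346), with 5 of 6 fasted libraries below the fed mean and within-batch values of -0.27, -0.01 and -0.12. Cdkn1c in the VMH had a value of 1.002 (SE 0.39, p = 0.0139 and adjusted p = 0.483 from limma, exact permutation p = 0.0346). Its 6 fed libraries ran from 0.622 through 0.88 to 2.13 RPKM and its 6 fasted libraries from 0.622 through 2.63 to 14.1 RPKM, so that the groups overlapped at the no-read value, and 5 of 6 fasted libraries were above the fed mean. Within batches the value was 1.31, 0.92 and 0.78. In batch 1 these were 3 and 0 reads in the fed and 0 and 49 reads in the fasted libraries. Reads of Cdkn1c are shared with Gm44732 over 30.7% of its exon length. At this depth a change of Cdkn1c was not resolved.

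Dlk1 had its largest change in the ARC, where the 5 fasted libraries had 269, 138, 102, 162 and 147 RPKM. The fasted library at 269 RPKM stood above the others and the groups overlapped (0.33, SE 0.22, adjusted p = 0.867). The fasted mean of Peg10 was below the fed mean in all 4 nuclei, with values of -0.16 (ARC), -0.28 (VMH), -0.09 (DMH) and -0.30 (PVN), none past the threshold (adjusted p = 0.636 to 1). In the PVN 5 of 5 fasted libraries of Peg10, at 109, 96.0, 109, 99.5 and 110 RPKM, were below the fed mean of 131 (exact permutation p = 0.0455). The value of Plagl1 was -0.37 in the VMH (SE 0.22, adjusted p = 0.679) and within 0.1 of no change in the ARC, DMH and PVN. Nnat had values of -0.20 in the ARC, -0.15 in the PVN and 0.16 in the VMH (adjusted p = 0.769 to 1).

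Differences between nuclei were also common among other imprinted genes outside the Prader-Willi region. Of 50 such genes listed, 43 were tested. Of these, 24 (55.8%) differed between fed nuclei, against 12.4% of all genes and 30.6% of the genes with reads. The VMH was lowest for 8 of these 24, the ARC for 7, the PVN for 6 and the DMH for 3, a count not made over all genes. Asb4, which lies near Peg10 on chromosome 6, had a fed mean of 107 RPKM in the ARC, 52.2 in the DMH, 18.5 in the PVN and 3.94 in the VMH. Calcr, the calcitonin receptor and part of the amylin receptor, had 27.8, 18.7, 36.9 and 2.92 RPKM in the same order. Rasgrf1, an exchange factor for Ras, was also lowest in the VMH at 162 RPKM against 251 to 283 elsewhere, as was Zdbf2 at 24.2 against 33.98 to 43.7. Adam23 was highest in the PVN at 47.9 RPKM (14.3 to 21.0 elsewhere) and Ppp1r9a was lowest there at 31.2 (44.5 to 49.5 elsewhere). Each of these 6 genes passed the F test at an adjusted p of 1.46e-08 or less.

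**Figure D4:**
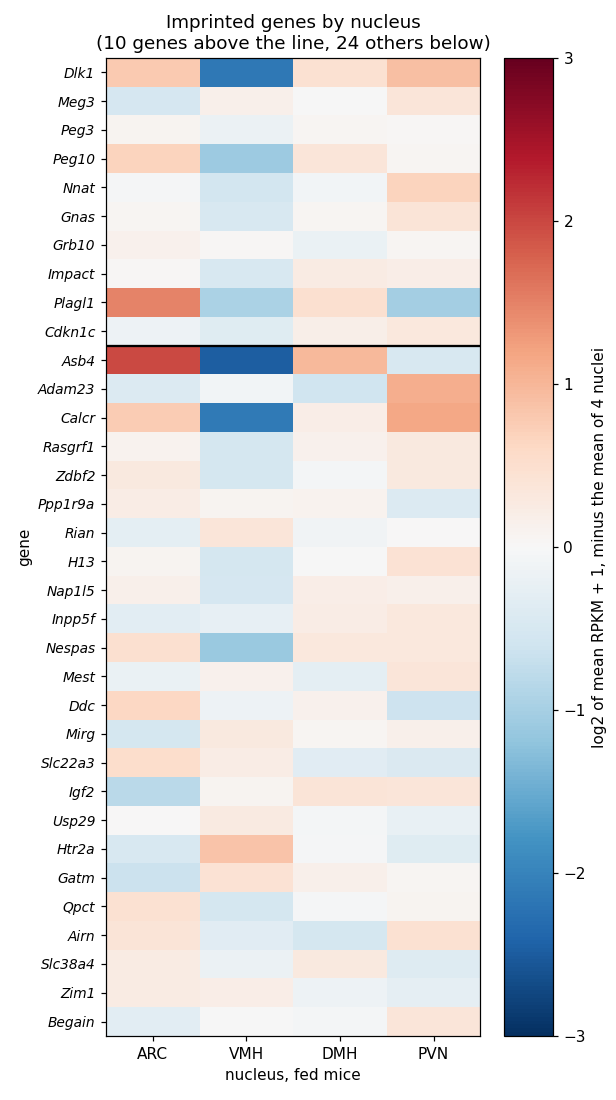
Fed level of the 10 genes (above the line) and of the 24 other imprinted genes that differed between nuclei (below), as the log2 of mean RPKM + 1 minus the mean of the 4 nuclei (colour, red for higher and blue for lower). The VMH column is blue for Dlk1, Peg10, Asb4 and Calcr, and red for Rian and Htr2a.

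Neighbours in the same domain did not all share the pattern of the gene beside them. Rian and Mirg, noncoding RNAs of the Dlk1 and Meg3 domain, were lowest in the ARC in fed mice as Meg3 was, with 76.7 and 13.01 RPKM there (adjusted p of the F test = 3.28e-06 and 0.00483). Rian was highest in the VMH, with 122 RPKM in fed mice and again in fasted mice. Mirg had 23.7 ± 5.09 RPKM in the fed VMH and 21.3 ± 4.42 in the fed PVN, and in fasted mice its mean was higher in the PVN (27.9) and the DMH (24.9) than in the VMH (19.2). Usp29, beside Peg3, had its highest fed mean in the VMH at 115 RPKM (81.5 to 95.9 elsewhere, adjusted p = 0.0135), where Peg3 was lowest, while its fasted means in the VMH and the DMH were 96.0 and 92.2 RPKM. Zim1, also beside Peg3, had fed means of 24.6 ± 5.20 (ARC), 24.0 ± 3.49 (VMH), 18.4 ± 4.54 (DMH) and 16.9 ± 6.51 RPKM (PVN). Nespas, the antisense RNA at Gnas, had its lowest fed mean in the VMH at 0.664 RPKM (3.44 to 4.02 elsewhere, adjusted p = 0.000225), with 38.5% of its exon length shared. Sgce beside Peg10 and Rtl1 beside Dlk1 did not pass (adjusted p = 0.629 and 0.426). The fast called 0 of the 43 other imprinted genes in any nucleus, with the smallest adjusted p at 0.103 in the VMH, and 6, 5, 3 and 2 had an unadjusted limma p under 0.05 in the ARC, VMH, DMH and PVN, where 7.5, 7.31, 6.48 and 5.53% of all genes did. Other settings called Zdbf2 in the VMH (-0.39, adjusted p = 0.0726, among genes with a mean of at least 5 RPKM), and with array weights Ddc (-1.02) and Klf14 (0.92) in the ARC and Zdbf2 in the PVN (-0.29). Scaling to the genes with reads also called Klf14 in the ARC (0.97, adjusted p = 0.0932). Klf14 was near the low end of the values, with ARC means of 1.18 RPKM fed and 3.19 RPKM fasted. Its fed libraries reached 2.06 RPKM and its fasted libraries began at 1.48, so the groups overlapped. Klf14 in the ARC was called as well without fasted ARC library 4, fed ARC library 1 or 3, fasted DMH library 2 or fed VMH library 5 (0.96 to 1.13), and Zdbf2 in the VMH without fed ARC library 1, fasted DMH library 2, fasted VMH library 2 or fed VMH library 4 or 6 (-0.46 to -0.39).

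Among 38 tested genes whose products act with those of the 10, 12 (31.6%) differed between fed nuclei, against 12.4% of all genes and 30.6% of the genes with reads. In fed mice Itpr1, the calcium release channel of the endoplasmic reticulum, was highest in the VMH at 49.7 RPKM (9.60 to 17.3 elsewhere), and Ryr2, a second such channel, was highest there at 17.8 (7.46 to 10.3 elsewhere), while Nnat was lowest in the VMH. Gnal, a G protein alpha subunit close to that of Gnas, followed the order of Gnas at its ends, with 62.9 RPKM in the PVN and 30.8 in the VMH. Mc3r, a melanocortin receptor, had 10.9 RPKM in the ARC and 11.3 in the VMH against 2.44 in the DMH and 1.72 in the PVN. Igf1r, a receptor that Grb10 binds, was highest in the PVN at 16.3 RPKM and lowest in the ARC at 5.94, and Adcy5 was highest in the VMH at 27.3. Fasting gave 3 calls in this list, all of them Cdkn1a, an inhibitor of cyclin-dependent kinases like Cdkn1c, where 0.0566% (ARC), 0.131% (VMH) and 0.0715% (PVN) of all genes were called. Cdkn1a rose from 4.15 to 17.0 RPKM in the ARC (1.92, adjusted p = 0.0613), from 3.99 to 12.1 in the VMH (1.58, adjusted p = 0.0897) and from 6.48 to 27.3 in the PVN (1.81, adjusted p = 0.0573), with a value of 1.34 in the DMH (adjusted p = 0.437). These calls were not stable. With log2(RPKM + 0.1) the call in the VMH alone passed, with the replicate block that in the PVN alone, with array weights those in the ARC and PVN, and with only that nucleus fitted none did (adjusted p = 0.404 to 0.919). The ARC call was lost without fasted ARC library 1, 2 or 4 or fed ARC library 1, 3 or 4 (1.71 to 2.02, adjusted p = 0.111 to 0.167). The PVN call was lost without fasted PVN library 1, 2 or 3 or fed PVN library 1, 3, 4 or 5 (1.58 to 1.82, adjusted p = 0.105 to 0.239). The VMH call was lost without fasted VMH library 2, 3, 4 or 5 or fed VMH library 1, 3, 4 or 5 (1.296 to 1.66, adjusted p = 0.101 to 0.262) and without any of 10 libraries of other nuclei, which share the estimate of the spread (adjusted p = 0.1002 to 0.108).

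Over the 42 libraries, the genes whose pattern was most like each of the 10, by Pearson's r among 13744 genes, were described without a test, since the libraries share nuclei, batches and depth. Dlk1 was most like Rasgrf1 (r = 0.942), Zbtb20 (0.941) and Calcr (0.937), of which Rasgrf1 and Calcr are imprinted. Peg10 was most like Dgkk (0.95), Cartpt (0.938) and Asb4 (0.935), and Peg3 was most like Peg10 (0.863), Slc38a1 (0.845) and Dgkk (0.842). Plagl1 was most like Ecel1 (0.929) and, after 4933403O08Rik (0.919), Gad1 (0.91), an enzyme of GABA synthesis. Nnat was most like Ptbp3 (0.886), Ctsd (0.864) and Trp53i11 (0.863). Impact was most like Lin7a (0.856), the imprinted Nap1l5 (0.844) and Flrt3 (0.843). Meg3 was most like Cntnap5b (0.878), Ephb1 (0.849) and Vstm2a (0.835). Gnas was most like the overlapping Gm20721 (0.944), then Tmem176b (0.915) and Necab1 (0.913). The values were lower for Grb10, with Hsp90ab1 (0.685), Morf4l2 (0.675) and Eif4a2 (0.611), and for Cdkn1c, with Gm10478 (0.677), Gm24689 (0.624) and Gm24084 (0.613).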

How the data were processed

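RNA-seq of laser-captured nuclei had been amplified with NuGEN Ovation chemistry and sequenced as single-end reads without strand. Per the submitters' processing notes and the paper's methods, reads were mapped by the authors with TopHat2 2.0.11 to GRCm38, named CASAVA 1.7, Cufflinks 2.2.1, edgeR and limma, and removed outlier samples. The deposited values are RPKM of 37907 genes in 42 libraries. None equals 0, since a gene with no reads carries a low value shared within each of 3 batches, whose means had been removed. Neither step is stated in those methods. A fold change understates that of a low gene.

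Symbols came from GENCODE M21 (35965 IDs matched). Values were taken as log2(RPKM + 1), genes with at least 1 RPKM in at least 4 libraries were kept (33579), and limma 3.58.1 in R 4.3.3 was fitted with 1 mean for each of 8 groups and an intensity trend. Replicates are separate samples in the labels. Exact permutation tests of single comparisons were two-sided. Depth was read from steps of low values, of which 97.7 to 98.8% were whole reads within 0.02. The fit was tested on simulated data. The 10 genes, the lists and the tests were chosen with earlier results of these data known. The text names all 10 genes, the 6 genes of each list with the smallest p of the fed F test, and every gene of a list called with fasting. It also names some of the domain neighbours and the 3 genes most alike. Alternatives were another pseudocount, 2 filters, median-ratio scaling, array weights, depth as a covariate, a replicate block, only that nucleus, and leaving out each library. The median-ratio factors were 1 in all 42 libraries, because many genes sit at the shared no-read value, so scaling over the 8837 genes with a mean of at least 5 RPKM and no recurring no-read value (factors 0.941 to 1.06) was added after seeing the data.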

Additional observations from a re-analysis of the deposited data

Results flagged for a closer look

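Of 80 groups of 4 to 6 libraries, 4 held a library far from the others of its group, as many as the 4 expected by chance. Peg3 had 388.3 RPKM in fed PVN library 5, against 324 to 340 in the others. Impact had 258.4 RPKM in fed PVN library 6 (216 to 227 in the others). Plagl1 had 13.07 RPKM in fed PVN library 1 (3.42 to 5.28). Cdkn1c had 14.11 RPKM in fasted VMH library 2 (0.622 to 3.63). Both libraries 5 and 6 were deep, at 6.22 and 6.10 M reads, and the part of depth was not tested.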

How the results depend on the processing

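Results of fasting were recomputed under 51 alternatives and those between nuclei under 50. Median-ratio scaling changed nothing, since its factor was 1 in all 42 libraries, and scaling over the genes with reads was added after seeing the data. The 9 genes that differed between nuclei, fed and fasted, and the 0 called with fasting in each nucleus held under all of them, with 9 genes tested at a mean of at least 5 RPKM, which left Cdkn1c out, and the smallest adjusted p of a fasting change was 0.272. None of 1750 differences between nuclei reversed, and 24 missed the threshold, 21 of them without a library. Scaling over the genes with reads left 3 genes between fed DMH and PVN in place of 5, without Meg3 and Grb10. Of 2036 fasting values, 44 changed sign, none of them past the threshold. Leaving out 1 library gave 3 to 5 genes between fed DMH and PVN, 1 to 3 fasting calls among the genes acting with the 10 and 0 to 2 among the other imprinted genes. The genes acting with the 10 had 3 calls, all of Cdkn1a, and 1 with log2(RPKM + 0.1) and 0 with only that nucleus fitted. The other imprinted genes had 0 calls, 1 with a mean RPKM of at least 5 (Zdbf2 in the VMH, -0.39, adjusted p = 0.0726), 1 with scaling over the genes with reads (Klf14 in the ARC) and 3 with array weights. The causes were not tested.

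The replicate numbers did not pair the samples. The correlation of deviations between fed and fasted libraries of 1 number ran from -0.121 to 0.0544 over 20 pairs, and between nuclei from -0.131 to 0.0655 over 58 pairs. With the replicate block, the fasting calls among the genes acting with the 10 fell from 3 to 1, and Meg3 missed the threshold between fed DMH and PVN (-0.38, adjusted p = 0.129), which left 4 genes in place of 5. Depth limits what can be said of Cdkn1c and Plagl1. Cdkn1c had 0 reads in some libraries of batch 1. The estimated lowest count of Plagl1 was 48.5 reads, which includes the small amount that a gene with no reads carries.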
